A study of Homo sapiens with 18 samples.

Results

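Axon guidance ligands and receptors are described here in neuroblastoma cells that overexpressed the exporter ABCC1. They were taken as the protein-coding genes whose symbols name a semaphorin of classes 3 to 7, a plexin, a neuropilin, an ephrin, an Eph receptor, a Slit, a Robo, a secreted netrin, DCC or an UNC5 receptor. The choice gave 69 genes of 57905 Ensembl genes in the count tables, of which 19263 are protein-coding: 20 semaphorins, 9 plexins, 2 neuropilins, 8 ephrins, 14 Eph receptors, 3 Slits, 4 Robos, 4 netrins, 4 UNC5 receptors and DCC. The rule uses gene symbols alone, and the family was chosen with earlier results of these data known.

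The cells were BE(2)-m17, a human neuroblastoma line, and all of them carried a stably integrated pSBbi-Hyg-APP vector for the amyloid precursor protein APP. Control cells, called Puro, also carried the empty pSBbi-Pur vector, and ABCC1 cells carried pSBbi-Pur-ABCC1(WT), a codon-optimized wild-type ABCC1. Both were integrated by the Sleeping Beauty transposase and selected with drugs, so each line is a selected pool with vector insertions of its own. For each library 14000000 cells were plated and lysed on day 4. There were 3 experiments (RNA1, RNA2 and RNA3, called the first, the second and the third here), each with 3 Puro and 3 ABCC1 libraries, 18 in all. The methods name a poly(A) kit for the first and a total RNA kit for low inputs for the other two. The labels of the first name both kits. The labels do not say which of the latter used cryopreserved and which newly transfected cells. The methods describe weekly platings of each line, and no source used here ties a library or a replicate number to a week. The p-values measure the spread between these libraries, part of which may be technical.

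Axon guidance genes encode cues and receptors that steer growing axons and migrating cells by attraction or repulsion. Secreted class 3 semaphorins bind neuropilins, which signal with A-type plexins, while most membrane semaphorins bind plexins directly. Slits repel through Robo receptors. Netrins attract through DCC and repel through UNC5 receptors. Ephrins stay on the membrane, where they bind Eph receptors on neighbouring cells and can signal in both directions. In the sympathetic lineage from which neuroblastoma arises, class 3 semaphorins and neuropilins guide neural crest cells and sympathetic axons.

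NRP1, SEMA3A, SEMA3C and ROBO2 were lower, and EFNB1 and PLXNA3 higher, in ABCC1 cells by the same test in at least 2 experiments. Of all genes called lower in the first experiment, 2.23% were called lower again in the second and 4.94% in the third, and of those called higher 11.5% and 16.6% were called higher again. The promoters of these 6 members are shown where the RefSeq table used here (build GRCh38.p14) holds them, which is the case for 4, and for 59 of the 69 members. NRP1 and SEMA3A are among the 10 not matched. Each line gives the 250 bases before the first start that the table lists, read on the gene's strand from 5′ to 3′. Capitals mark motifs searched on both strands, so that a match on the other strand reads as the reverse complement. The GC box was searched as GGGCGG. The CCAAT box was searched by the letters of its name. The TATA box was searched as TATAAA. The E-box was searched as CACGTG, which reads the same on both strands. The capitals of different motifs do not overlap in these windows. The upper pair are the genes that rose and the lower pair genes that fell. EFNB1 lies at chrX:68828771-68829020 and PLXNA3 at chrX:154458031-154458280, both on the plus strand, while ROBO2 lies at chr3:76310630-76310879 on the plus strand and SEMA3C at chr7:80922390-80922639 on the minus strand.
EFNB1: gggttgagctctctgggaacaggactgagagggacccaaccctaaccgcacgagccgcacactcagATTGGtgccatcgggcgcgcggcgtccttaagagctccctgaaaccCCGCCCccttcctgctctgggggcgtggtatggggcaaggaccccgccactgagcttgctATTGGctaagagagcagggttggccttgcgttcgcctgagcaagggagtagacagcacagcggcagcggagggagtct
PLXNA3: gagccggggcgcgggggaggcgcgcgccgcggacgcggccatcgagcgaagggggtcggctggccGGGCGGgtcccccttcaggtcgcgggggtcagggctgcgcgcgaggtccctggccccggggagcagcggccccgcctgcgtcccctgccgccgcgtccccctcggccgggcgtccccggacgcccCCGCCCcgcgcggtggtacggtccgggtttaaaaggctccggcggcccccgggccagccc
ROBO2: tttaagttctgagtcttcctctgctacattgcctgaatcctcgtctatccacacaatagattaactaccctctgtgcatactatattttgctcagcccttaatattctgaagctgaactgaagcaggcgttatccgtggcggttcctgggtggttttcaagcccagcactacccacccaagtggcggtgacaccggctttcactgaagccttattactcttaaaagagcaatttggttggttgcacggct
SEMA3C: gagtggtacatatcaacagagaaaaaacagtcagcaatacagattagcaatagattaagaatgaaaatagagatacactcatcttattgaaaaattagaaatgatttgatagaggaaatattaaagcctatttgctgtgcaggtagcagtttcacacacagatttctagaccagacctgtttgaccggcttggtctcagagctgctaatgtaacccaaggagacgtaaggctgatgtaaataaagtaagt

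The EFNB1 window held 1 GC box, 2 CCAAT boxes and 15 CG dinucleotides, and that of PLXNA3 2 GC boxes and 41 CG dinucleotides. No motif of the search was in the ROBO2 window, with 7 CG dinucleotides, or the SEMA3C window, with 2. The table lists 2 starts for each of these genes, ROBO2 and SEMA3C, and which is used in these cells was not measured. Among all 27305 promoters, 42.3% held a GC box in this window, 33.0% a CCAAT box, 11.1% a TATA box and 6.49% an E-box. Of the 59 members matched, 43 held a GC box, 20 a CCAAT box, 1 a TATA box and 4 an E-box. The median number of CG dinucleotides was 17 for the members and 11 for all promoters. These matches are descriptions of letters and not of binding sites.

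Libraries held 27433393 to 57937653 assigned read pairs in the first experiment, 19577853 to 30996228 in the second and 8866994 to 13332413 in the third. Levels are given as CPM, read pairs scaled to the library size after TMM normalization. Exogenous ABCC1 had 0 to 15 counts in Puro libraries and 51035 to 594404 in ABCC1 libraries. The 17 adrenergic and neuronal markers, among them PHOX2A, GATA3, CHGA and DBH, were all tested in every experiment, and summed to at least 2672 CPM per kb in every library. Of these, 12 were called in the first experiment (3 higher, 9 lower), 1 in the second (lower) and 5 in the third (1 higher, 4 lower). Among all genes tested, 17.9% were called higher and 19.7% lower in the first, 1.25% and 0.458% in the second and 2.03% and 0.767% in the third. The shares of the second rest on single libraries, since its 425 higher and 156 lower genes became 3 and 2 without Puro replicate 3 and 593 and 765 without ABCC1 replicate 3. INSM1, a neuroendocrine transcription factor, was lower in all 3 experiments, by 2.67, 1.46 and 2.30 on the log2 scale. In the first experiment 5 of the 6 fibroblast markers tested were higher in ABCC1 cells, and the summed level of the 8 listed went from 34.0 to 35.0 in Puro to 48.2 to 48.9 CPM per kb. None of the 8 was called in the second or the third, with median log2 changes of −0.41 and −0.32. Their part in the results below was not tested. Olfactory receptor genes, which serve olfactory neurons, gave a background level, the summed CPM of 350 genes per summed kb of exon. It was 0.00510 in Puro and 0.00411 in ABCC1 libraries of the first experiment, 0.578 and 0.303 in the second, and 1.57 and 1.25 in the third. In each of the 3 experiments all ABCC1 libraries were below all Puro libraries at this level. Fits with the olfactory level as a covariate used its log2 before TMM scaling. On that scale the lines were apart in the first and the second experiments, so the covariate is aligned with the line there. In the third, ABCC1 replicate 1 (1.49 CPM per kb) was above Puro replicate 2 (1.38), so the alignment is partial. ABCC1 replicate 3 of the first experiment stood apart from replicates 1 and 2, with a chi-square per degree of freedom of 24.1 and 17.96 over genes, where that pair had 1.53. A member is called near background where its level is under 3 times that of olfactory receptors in the same group.

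Members of the first experiment were spread over more than 4 orders of magnitude in level per kb, as CPM divided by the kb of exon. UNC5B, a netrin receptor, was highest in every group, at 108 ± 1.49 in Puro and 84.1 ± 5.92 in ABCC1 cells (SD, n = 3). After it came PLXNB2, a plexin for class 4 semaphorins, with 47.2 ± 1.76 in Puro, then UNC5C with 31.2 ± 0.601 and SLIT3 with 30.0 ± 1.00, which overlapped between libraries. PLXNA1 had 21.6 ± 0.944 and UNC5A 20.6 ± 0.602. SEMA6A, a membrane semaphorin that binds A-type plexins, led its family with 17.2 ± 0.831, and EPHA7 led the Eph receptors with 14 ± 0.771. SEMA4C followed with 10.7 ± 0.637 and SEMA6D with 6.84 ± 0.106. ROBO1 led the Robos with 10.1 ± 0.203, and EFNB2 the ephrins with 10.1 ± 0.0542, ahead of EFNA5 with 7.55 ± 0.363. EPHB2 had 11.1 ± 0.320 and EPHA8 3.99 ± 0.343. Among netrins NTN3 had 2.67 ± 0.130, above the median member of Puro cells at 1.46. NTN5 had 0.130 ± 0.0316 and NTN4 0.0496 ± 0.0206. The summed level of receptors was 309 and that of ligands 129 in Puro, and 275 and 121 in ABCC1 cells.

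Against the olfactory background, 65 of 69 members of the first experiment were above 3 times the olfactory level in each line, and only EPHA1, EPHA3 and ROBO4 were near it in both lines. ROBO4, an endothelial Robo, had 0 counts in all 6 libraries, which allows up to 3 counts in each, for counting error only. The second experiment had 36 such members in Puro and 45 in ABCC1 cells, and the third 25 in each. SLIT1 was the lowest member there, and 82.2% of its exon bases are shared with the readthrough gene ARHGAP19-SLIT1, so that pairs in them fit both genes and are not counted. Likewise EFNA3 shares 49.7%, UNC5D 37.2%, SEMA4G 27.4%, PLXNB3 20.1%, ROBO4 16.9% and EFNA4 14.96% of exon bases with other genes, and their counts are uncertain.

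**Figure D1:**
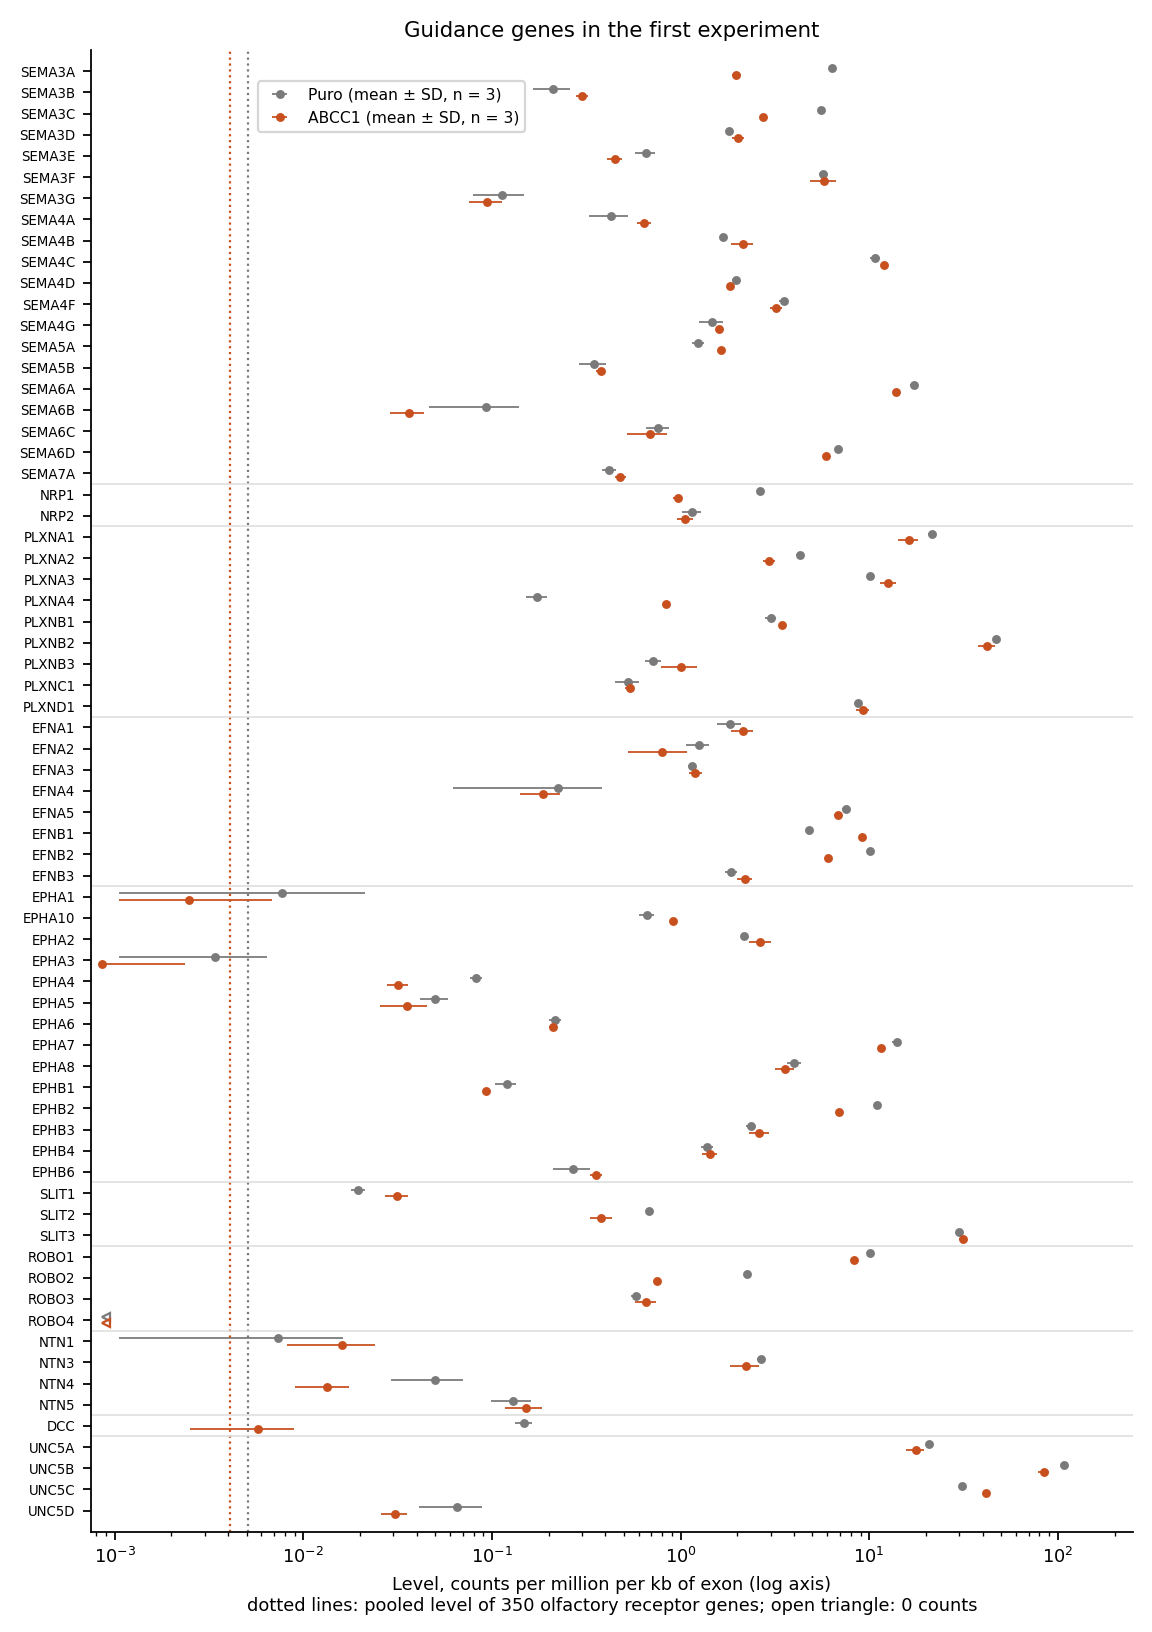
Level of the 69 members in the first experiment, in CPM per kb of exon on a log axis, by family, as mean ± SD of 3 Puro (grey) and 3 ABCC1 (orange) libraries, with bars cut short where they would reach 0. UNC5B is highest in both lines, DCC and PLXNA4 are separated most between the lines, and EPHA1, EPHA3 and ROBO4 lie near or below the olfactory receptor level (dotted).

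The question for each experiment is which members differed between ABCC1 and Puro cells, at an adjusted p of 0.05 or less. Calls are those of edgeR with TMM scaling unless another fit is named. In the first experiment 61 members passed the filter on low counts and 33 were called, 13 higher and 20 lower. Without ABCC1 replicate 3 of that experiment 43 were called, 15 higher and 28 lower, where the calls over all genes went from 3040 higher and 3342 lower to 3792 and 4035. Among all 16995 genes tested 17.9% were higher and 19.7% lower, against 21.3% and 32.8% of the members tested. The median log2 fold change was −0.11 over members and 0.01 over all genes. At an adjusted p of 0.001 or less and a log2 change of at least 1.5, PLXNA4 was higher and SEMA3A, ROBO2 and DCC were lower, where the background was 0.382% higher and 1.72% lower. DCC passed the filter through the Puro libraries alone, so its call is given as a description. All 69 members were tested in the other experiments. NRP1 alone was called in the second, as lower, where 1.25% of 34091 genes were higher and 0.458% lower. In the third 2 members were higher and 4 lower, against 2.03% and 0.767% of 36509 genes. All members are protein-coding, and of protein-coding genes tested 19.4% were higher and 21.0% lower in the first experiment, 2.21% and 0.668% in the second and 3.54% and 1.22% in the third. With relative log expression in place of TMM scaling the members' calls became 2 higher and 1 lower in the second and 3 and 4 in the third experiment, and over all genes 784 higher and 302 lower, against 425 and 156 with TMM, in the second and 966 and 199, against 741 and 280, in the third. That scaling moved the median of all genes in the second experiment from −0.19 to −0.08.

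Levels and calls in the first experiment carried over in direction unevenly. Of the 13 members higher in the first experiment, 10 were above 0 in the second and 7 in the third, where 83.2% and 78.5% of all genes called higher were. Of the 20 lower members, 12 were below 0 in the second and 17 in the third, against 58.0% and 75.3% of all genes. Called again in the same direction were 0 of the 13 in the second and 2 in the third, and 1 of the 20 in the second and 4 in the third. No member was called in opposite directions. The experiments share no library. By the paper, either the second or the third used cryopreserved cells, and the other newly transfected cells. The cryopreserved cells may share selected pools and vector insertions with the first experiment, so the experiments need not be independent transfections.

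**Figure D2:**
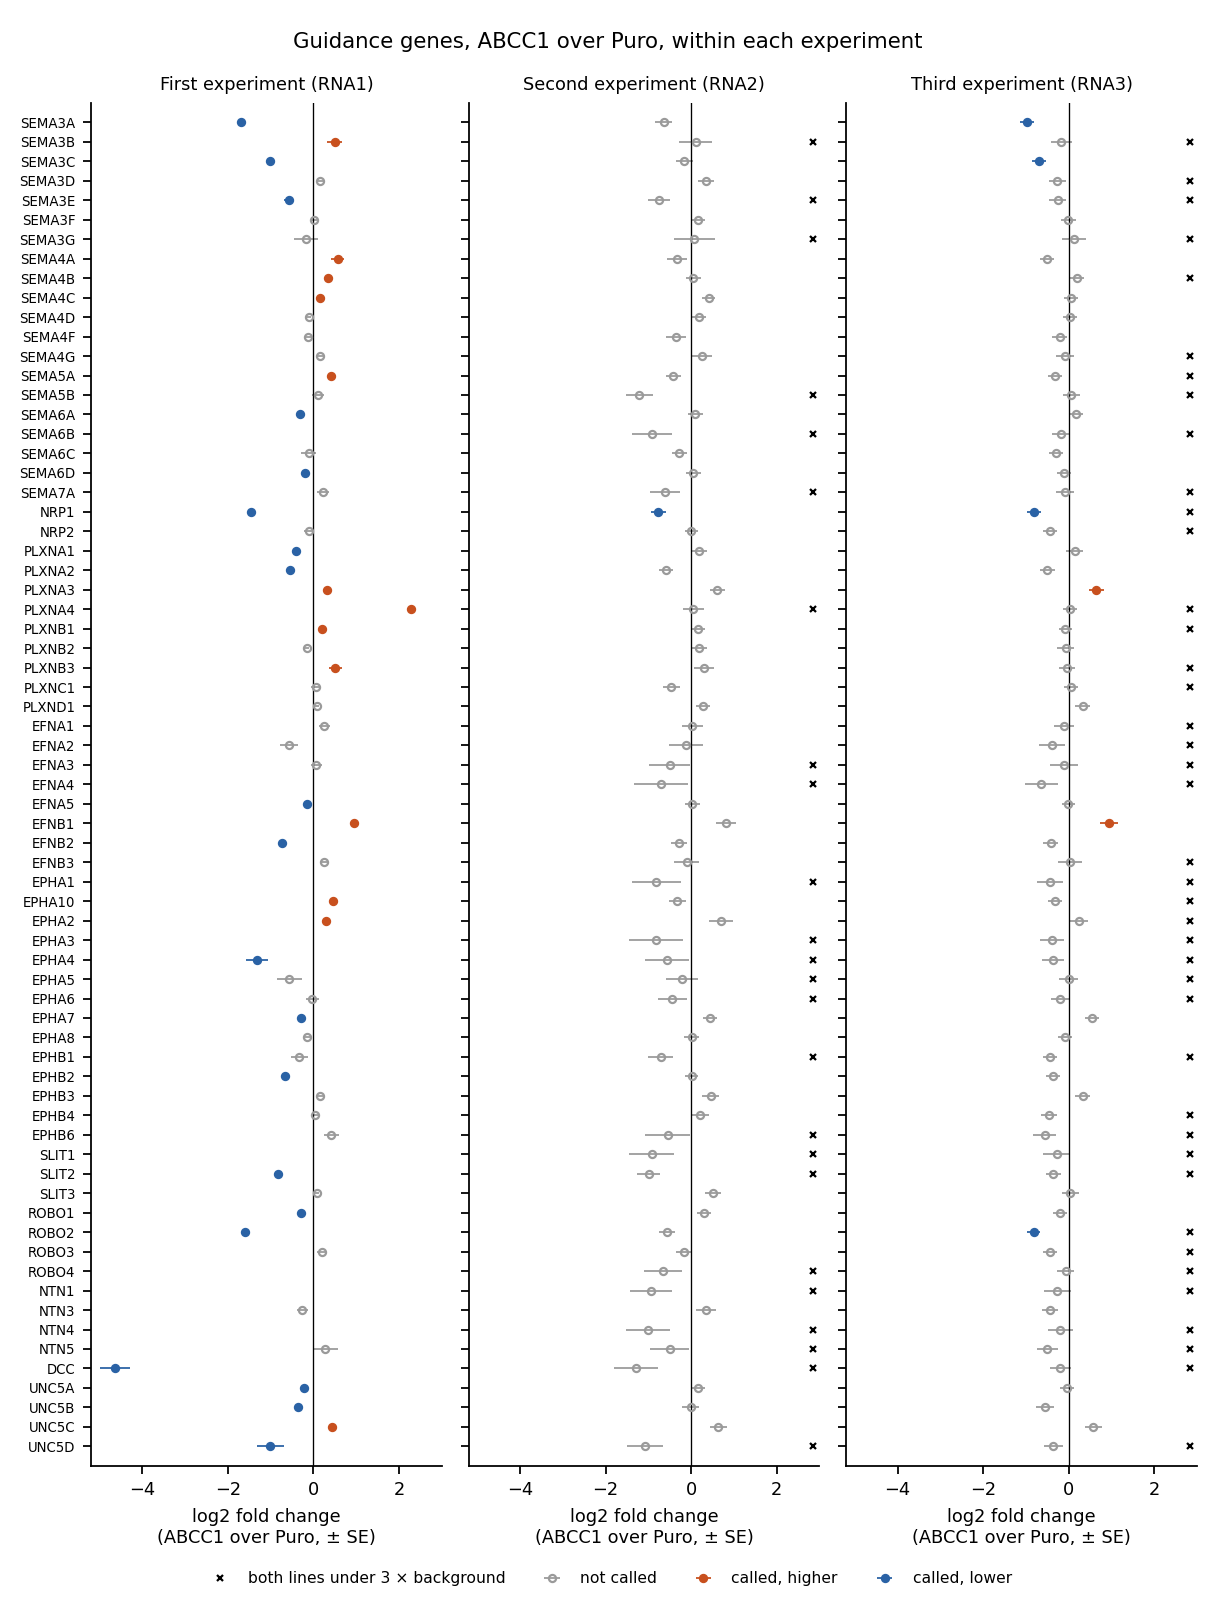
Fold change of the 69 members, as log2 of ABCC1 over Puro ± SE, in the first, the second and the third experiment, with filled points for members called higher (orange) or lower (blue). Crosses mark members under 3 times the olfactory receptor level in both lines, and calls are dense in the first experiment alone, with NRP1 blue in all 3.

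SEMA3A and SEMA3C, class 3 semaphorins, and NRP1, a neuropilin, were lower in ABCC1 cells of the first and the third experiments. SEMA3A, the collapse-inducing semaphorin of sympathetic and sensory axons (ENSG00000075213, GRCh37 chr7:83585093-84122040), had counts of 2505, 1621 and 1965 in Puro and 1019, 634 and 1041 in ABCC1 libraries of the first experiment. In CPM per kb this was 6.38 ± 0.254 and 1.98 ± 0.103 (SD, n = 3), with no overlap and a log2 fold change of −1.69 ± 0.06 (SE, adjusted p = 1.18e-08). In the second experiment it had 644, 1746 and 919 counts in Puro and 779, 644 and 782 in ABCC1 libraries. The lines overlapped there, Puro replicate 2 being highest, and the change of −0.64 ± 0.19 was not called (adjusted p = 0.0801). In the third, counts were 416, 652 and 511 against 291, 311 and 308. The lines did not overlap, and the change was −0.96 ± 0.17 (adjusted p = 3.33e-05). Its level fell there by 2.59 CPM per kb, where the olfactory level fell by 0.324. It lay at 3.38 and 2.18 times the olfactory level in Puro and ABCC1 cells of the third, near background in the latter.

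SEMA3C, a class 3 semaphorin of cardiac neural crest and sympathetic axons (ENSG00000075223, chr7:80371854-80551675), had 1530, 925 and 1100 counts in Puro and 974, 556 and 971 in ABCC1 libraries of the first experiment. The log2 change was −1.02 ± 0.05 (adjusted p = 2.30e-07), without overlap in CPM. Counts of 450, 1224 and 667 against 740, 610 and 852 in the second overlapped, with a change of −0.15 ± 0.19 (adjusted p = 0.655). The third gave 365, 409 and 278 against 267, 232 and 225, a change of −0.70 ± 0.16 (adjusted p = 0.00522) that was not called without Puro replicate 1 (adjusted p = 0.0535), ABCC1 replicate 2 (0.0749) or ABCC1 replicate 3 (0.104). In CPM no ABCC1 library reached a Puro library in that experiment, where SEMA3C lay at 3.34 and 2.60 times the olfactory level in Puro and ABCC1 cells.

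NRP1, neuropilin 1, the binding receptor for SEMA3A and a co-receptor of vascular growth factors (ENSG00000099250, chr10:33466420-33625190), was the one member called in all 3 experiments by edgeR with TMM scaling. Its counts were 1345, 792 and 991 in Puro and 666, 353 and 616 in ABCC1 libraries of the first, where the level went from 2.64 ± 0.107 to 0.964 ± 0.0518 and the log2 change was −1.46 ± 0.06 (adjusted p = 7.70e-08). In the second they were 406, 795 and 485 against 380, 282 and 384, with a change of −0.77 ± 0.18 (adjusted p = 0.0284). That call was lost without Puro replicate 2 (adjusted p = 0.102), Puro replicate 3 (0.174), ABCC1 replicate 2 (0.130) or ABCC1 replicate 3 (0.0606). It was also lost with the olfactory level as a covariate, where no member was called. With relative log expression scaling it was lost (0.0526), and EFNB1 (0.0169) and PLXNA3 (0.0377) were called higher and SLIT2 (0.0403) lower instead. NRP1 lay there at 3.39 and 3.80 times the olfactory level in Puro and ABCC1 cells, and fell by 0.810 CPM per kb where the olfactory level fell by 0.276. The third experiment gave 474, 651 and 411 against 341, 281 and 359, a change of −0.81 ± 0.16 (adjusted p = 0.000683), not called without ABCC1 replicate 2 (0.0533). In CPM the lines did not overlap in any experiment. In the third, NRP1 was near background, at 2.65 and 1.91 times the olfactory level in Puro and ABCC1 cells, and fell by 1.79 CPM per kb. An antisense gene, AL121748.2, overlaps 4.87% of its exon bases, and the counting used no strand. NRP2, its paralog, had log2 changes of −0.12 ± 0.10, 0.01 ± 0.16 and −0.43 ± 0.17, none called.

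Of the other class 3 semaphorins, SEMA3E, a ligand of PLXND1, was lower in the first experiment, by 0.57 ± 0.12 on the log2 scale (adjusted p = 0.00407), and SEMA3B higher, by 0.49 ± 0.18 (adjusted p = 0.0480). SEMA3E had changes of −0.75 ± 0.25 (adjusted p = 0.109) in the second and −0.25 ± 0.20 in the third, near background in both. The SEMA3B call was lost without Puro replicate 2 or 3 or ABCC1 replicate 1 or 2 (adjusted p from 0.0562 to 0.175). SEMA3D, SEMA3F and SEMA3G were not called in any experiment. SEMA3F, at a level near that of SEMA3A in Puro cells, had changes of 0.01 ± 0.10, 0.16 ± 0.17 and 0.00 ± 0.17. The summed level of the 7 class 3 members in the first experiment was 20.4 in Puro and 13.3 in ABCC1 cells.

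A-type plexins, the signalling partners of neuropilins, did not move together. PLXNA3 (ENSG00000130827, chrX:153686621-153701989) had 3467, 2067 and 2364 counts in Puro and 5114, 2907 and 6193 in ABCC1 libraries of the first experiment, a log2 change of 0.32 ± 0.07 (adjusted p = 0.00332). In the second it had 943, 1396 and 667 against 1862, 1237 and 1782, a change of 0.62 ± 0.17 (adjusted p = 0.0586), and in the third 541, 826 and 450 against 902, 1123 and 1150, a change of 0.65 ± 0.17 (adjusted p = 0.0193). In CPM the lines did not overlap in any experiment. The third call was lost without any of Puro replicates 1 (adjusted p = 0.179) and 3 (0.233) or ABCC1 replicates 2 (0.182) and 3 (0.153). With the olfactory level as a covariate the first was not called at a change of 0.29 (adjusted p = 0.249), nor was the third at 0.20 (0.733). PLXNA2, which pairs with class 6 as well as class 3 semaphorins, was lower in the first experiment by 0.55 ± 0.06 (adjusted p = 7.42e-05), and its changes of −0.58 ± 0.17 and −0.50 ± 0.17 in the other experiments were not called (adjusted p = 0.0699 and 0.101), although the lines did not overlap. PLXNA1 was lower in the first experiment, by 0.41 ± 0.08 (adjusted p = 0.00212), with changes of 0.19 ± 0.18 and 0.14 ± 0.19 in the others.

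PLXNA4 (ENSG00000221866, chr7:131808091-132333447) rose most of all members. In the first experiment it had 107, 79 and 101 counts in Puro and 809, 432 and 786 in ABCC1 libraries, from 0.174 ± 0.0228 to 0.839 ± 0.0298 CPM per kb. The log2 change was 2.28 ± 0.10 (adjusted p = 6.58e-08), and no line's library came near the other's. The second experiment gave 290, 241 and 145 against 332, 175 and 255 counts, and the third 258, 202 and 235 against 283, 233 and 289. These overlapped, with changes of 0.05 ± 0.25 and 0.04 ± 0.17, at 0.978 and 1.94 times the olfactory level in the second and 0.853 and 1.10 times in the third. Its ABCC1 level of the first experiment, 0.839, is under the olfactory level in ABCC1 cells of the third, 1.25, and above that of the second, 0.303.

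Of the other plexins, PLXNB1, a SEMA4D receptor, and PLXNB3, a SEMA5A receptor, were higher in the first experiment by 0.20 ± 0.06 and 0.51 ± 0.16 (adjusted p = 0.0267 for both). The PLXNB1 call was lost without Puro replicate 1 or 3 or ABCC1 replicate 2 (adjusted p from 0.0660 to 0.114), and that of PLXNB3 without Puro replicate 1 or 3 (0.119 and 0.0833). PLXNB2, PLXNC1 and PLXND1 were not called. Among the 13 membrane semaphorins, of which 12 were tested, 4 (33.3%) were higher (SEMA4A, SEMA4B, SEMA4C and SEMA5A) and 2 (16.7%) lower (SEMA6A and SEMA6D) in the first experiment, beside 17.9% and 19.7% of all genes, with log2 changes from −0.31 to 0.56. SEMA4A was not called without Puro replicate 2 or 3 (adjusted p = 0.0540 and 0.0595), SEMA4B without Puro replicate 1 or 3 (0.0625 and 0.0628), and SEMA4C without Puro replicate 2 or 3 or ABCC1 replicate 1 or 2 (0.101 to 0.151). SEMA6A went from 17.2 ± 0.831 to 13.9 ± 0.538 CPM per kb, a change of −0.31 ± 0.05 (adjusted p = 0.000561). None of the 13 was called in the second or the third experiment.

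**Figure D3:**
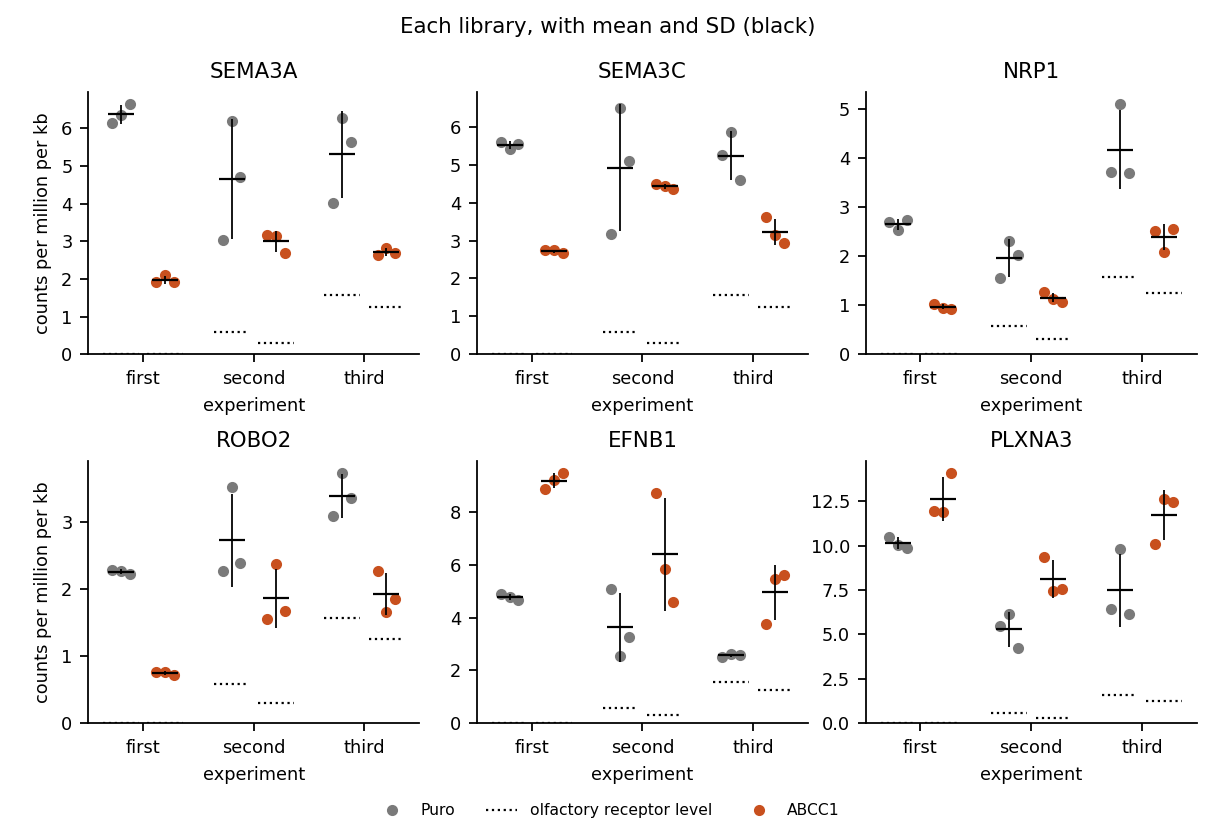
The 6 members called in the same direction in at least 2 experiments, in CPM per kb in each library (grey Puro, orange ABCC1), with mean ± SD of 3 libraries in black. The dotted olfactory receptor level is near 0 in the first experiment and 1.57 and 1.25 in the third. There it lies close under NRP1, ROBO2 and the Puro libraries of EFNB1. The ABCC1 means of SEMA3A and SEMA3C are under 3 times that level there.

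Ephrins of the B class moved in both directions. EFNB1, a transmembrane ephrin of X-linked craniofrontonasal syndrome (ENSG00000090776, chrX:68048840-68061990), had 707, 433 and 487 counts in Puro and 1668, 985 and 1822 in ABCC1 libraries of the first experiment. Its level rose from 4.78 ± 0.122 to 9.19 ± 0.289 CPM per kb, and the log2 change was 0.94 ± 0.06 (adjusted p = 7.57e-07). Counts in the second were 382, 253 and 226 against 761, 425 and 473. One Puro library lay above one ABCC1 library in CPM, and the change of 0.82 ± 0.23 missed the threshold (adjusted p = 0.0626). In the third they were 92, 96 and 83 against 147, 213 and 227, without overlap, a change of 0.95 ± 0.20 (adjusted p = 0.00146). With the olfactory level as a covariate it was not called, at a change of 0.56 (adjusted p = 0.418). Puro cells lay at 1.64 times and ABCC1 cells at 3.97 times the olfactory level there.

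EFNB2, an ephrin of arteries and growth cones (ENSG00000125266, chr13:107142079-107187462), went the other way. Its counts were 1977, 1225 and 1429 in Puro and 1506, 872 and 1582 in ABCC1 libraries of the first experiment, or 10.1 ± 0.0542 and 6.04 ± 0.0727 CPM per kb. The log2 change was −0.75 ± 0.05 (adjusted p = 9.32e-07). Changes of −0.29 ± 0.19 and −0.42 ± 0.17 in the second and the third experiments were not called. EFNA5, a lipid-anchored ephrin, was called lower in the first with a change of −0.15 ± 0.05 (adjusted p = 0.0499), and the call was lost without any of 5 of the 6 libraries, all but ABCC1 replicate 3 (adjusted p from 0.0700 to 0.182). The other ephrins were not called in any experiment.

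Among Eph receptors the first experiment gave 2 higher and 3 lower of 12 tested, 16.7% and 25%, beside the 17.9% and 19.7% of all genes. EPHB2, a receptor for B-class ephrins (ENSG00000133216, chr1:23037332-23241818), had 3154, 1900 and 2161 counts in Puro and 2492, 1383 and 2603 in ABCC1 libraries. That was 11.1 ± 0.320 and 6.92 ± 0.159 CPM per kb, without overlap, and a log2 change of −0.68 ± 0.05 (adjusted p = 1.54e-06). In the other experiments it changed by 0.02 ± 0.15 and −0.37 ± 0.17, not called. EPHA7 was lower in the first experiment by 0.28 ± 0.05 (adjusted p = 0.00131), and had changes of 0.44 ± 0.17 (adjusted p = 0.141) and 0.55 ± 0.17 (adjusted p = 0.0507) in the others. EPHA4, a receptor for both classes of ephrin, was lower by 1.32 ± 0.25 (adjusted p = 0.00210) at 17 to 25 counts in Puro and 7 to 16 in ABCC1 libraries. It passed the filter through the 3 Puro libraries, where 1 ABCC1 library reached the filter's 0.264 CPM, so the call describes a member kept by the line in which it is high. EPHA10 and EPHA2 were higher by 0.46 ± 0.09 and 0.30 ± 0.10 (adjusted p = 0.00217 and 0.0313). The EPHA2 call was lost without any of the 3 Puro libraries (adjusted p from 0.0764 to 0.108). No Eph receptor was called by edgeR with TMM scaling in the second or the third experiment, while with the olfactory level as a covariate EPHB2 was called lower in the third, at −0.71 (adjusted p = 0.00921), and EPHA7 was called higher there in 9 of 15 alternative fits (adjusted p from 0.000354 to 0.879). In these experiments 7 and 10 of 14 were near background in both lines.

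ROBO2, a Slit receptor (ENSG00000185008, chr3:75955846-77699115), was lower in the first and the third experiments. In the first it had 1659, 1030 and 1165 counts in Puro and 717, 413 and 692 in ABCC1 libraries, 2.26 ± 0.0369 and 0.748 ± 0.0283 CPM per kb. The log2 change was −1.60 ± 0.06 (adjusted p = 1.42e-08). The second had 857, 1758 and 830 against 679, 864 and 868 counts, which overlapped in CPM, with a change of −0.55 ± 0.19 (adjusted p = 0.108). In the third there were 568, 689 and 540 against 444, 323 and 375 counts without overlap, a change of −0.82 ± 0.16 (adjusted p = 0.000490), not called without ABCC1 replicate 2 (adjusted p = 0.0606). It was near background in the third, at 2.16 and 1.54 times the olfactory level, and its level fell by 1.47 CPM per kb. Its promoter window printed above held none of the motifs.

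ROBO1, the more abundant paralog, was lower in the first experiment by 0.28 ± 0.04 (adjusted p = 0.000290), with changes of 0.31 ± 0.16 and −0.20 ± 0.17 in the others. SLIT2, a ligand of both (ENSG00000145147, chr4:20254883-20622184), had 302, 174 and 206 counts in Puro and 214, 102 and 240 in ABCC1 libraries of the first experiment. The log2 change was −0.83 ± 0.11 (adjusted p = 0.000181), and with the olfactory level as a covariate it was −0.77 and not called (0.0649). In the second, 239, 272 and 254 counts against 94, 99 and 242 gave −0.99 ± 0.27 (adjusted p = 0.0569) near background, and in the third 236, 190 and 201 against 233, 144 and 172 gave −0.36 ± 0.18. SLIT3, the abundant Slit, had changes of 0.08 ± 0.05, 0.51 ± 0.18 and 0.04 ± 0.20, none called. ROBO3, which lacks high-affinity Slit binding, was not called.

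DCC, the attractive netrin receptor (ENSG00000187323, chr18:49866542-51057784), fell most of all members in the first experiment. It had 49, 36 and 44 counts in Puro and 1, 2 and 4 in ABCC1 libraries, and passed the filter through the Puro libraries alone. The summed counts per summed library size were 26.2 times as high in Puro as in ABCC1 libraries (95% exact interval 12.3 to 66.4, counting error only). The log2 change was −4.65 ± 0.35 (adjusted p = 3.37e-06), and the level in ABCC1 cells, 0.00572 ± 0.00321 CPM per kb, was 1.39 times that of olfactory receptors. In the second experiment it had 115, 61 and 55 counts against 16, 22 and 72, and in the third 91, 70 and 89 against 90, 72 and 84. These overlapped in CPM, were under the olfactory level in both lines and were not called (adjusted p = 0.155 and 0.767).

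The 4 UNC5 receptors were all called in the first experiment, 1 higher and 3 lower, where 17.9% of all genes were higher and 19.7% lower, and the calls of UNC5A and UNC5D were lost with single libraries left out. UNC5C was higher, with 14239, 9264 and 10506 counts in Puro and 26087, 14555 and 24959 in ABCC1 libraries, 31.2 ± 0.601 and 41.9 ± 1.48 CPM per kb. Its log2 change was 0.42 ± 0.04 (adjusted p = 2.48e-05), and changes of 0.64 ± 0.20 and 0.58 ± 0.19 in the second and the third did not pass (adjusted p = 0.0830 and 0.0878), with no overlap between lines in either. UNC5B was lower by 0.36 ± 0.05 (adjusted p = 0.000409), with −0.01 ± 0.20 and −0.55 ± 0.21 in the others. UNC5A was lower by 0.23 ± 0.07 (adjusted p = 0.0309), a call lost without any one of 5 of the 6 libraries, all but ABCC1 replicate 3 (adjusted p from 0.0652 to 0.107). UNC5D was lower by 1.01 ± 0.31 (adjusted p = 0.0260) at 10 to 27 counts, and not called without Puro replicate 2, Puro replicate 3 or ABCC1 replicate 2 (adjusted p from 0.0512 to 0.106). No netrin was called in any experiment. The 8 members not tested in the first experiment were EFNA4, EPHA1, EPHA3, NTN1, NTN4, ROBO4, SEMA6B and SLIT1, and NTN4 had 20 counts in Puro and 8 in ABCC1 libraries in sum.

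Whether the fold change differed between the experiments was tested in one fit of the 18 libraries. Of the 69 members, 6 differed at an adjusted p of 0.05 or less, where 1.19% of 46225 genes did. DCC and PLXNA4 had the smallest adjusted p-values, 2.81e-05 and 3.47e-09. Relative to the first experiment, the log2 change of DCC was less negative by 3.26 in the second and 4.40 in the third, and that of PLXNA4 lower by 2.30 and 2.26. Both were near background in the second and the third experiments. ROBO2 (adjusted p = 0.0258) and SEMA3A (0.0493) were below 0 in all 3 experiments and differed in size. In the third experiment ROBO2 was near background in both lines and SEMA3A in ABCC1 cells. SEMA5A, a semaphorin with thrombospondin repeats, had changes of 0.40 ± 0.07, −0.41 ± 0.18 and −0.32 ± 0.16 (adjusted p = 0.0233). It lay at 2.39 and 3.44 times the olfactory level in Puro and ABCC1 cells of the second experiment and at 1.78 and 1.80 times in the third, near background in one line and in both. SEMA5B, its paralog, had 0.11 ± 0.14, −1.21 ± 0.32 and 0.07 ± 0.20 (adjusted p = 0.0107), near background in the second and the third. By the methods, the kit and the sequencer changed between the first and the later experiments. A difference between the first and the later experiments therefore cannot be told apart from the kit. The second and the third share kit and sequencer, and differ in the use of cryopreserved or newly transfected cells. The causes of the differences were not tested.

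**Figure D4:**
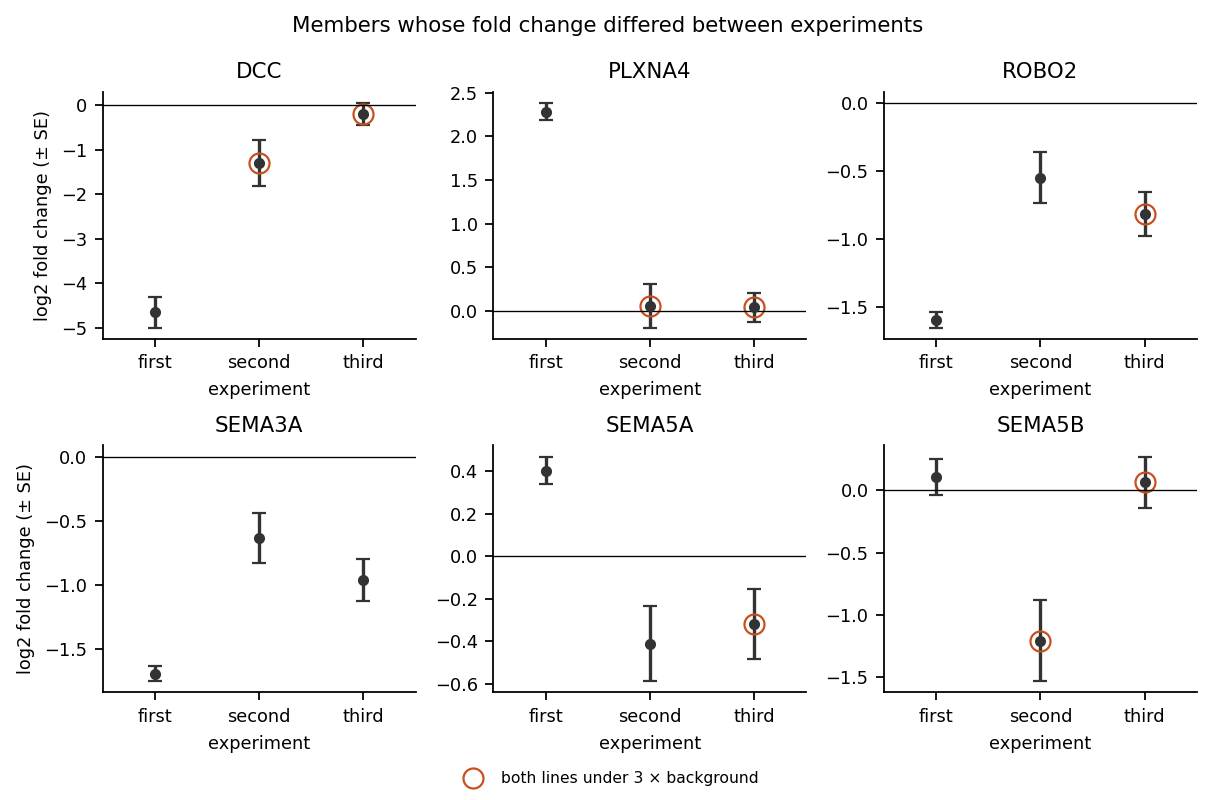
Log2 fold change of ABCC1 over Puro ± SE in each experiment for the 6 members whose change differed between experiments, with rings around values where both lines were under 3 times the olfactory receptor level. ROBO2 and SEMA3A lie below 0 throughout, with a ring for ROBO2 in the third experiment. SEMA5A is above 0 in the first experiment only, with a ring in the third. The values of DCC, PLXNA4 and SEMA5B in the later experiments are ringed. The vertical axes differ between panels.

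Other genes of these pathways, co-receptors, adaptors and cytoskeletal effectors, were taken from a list of 58 of which 57 are in the tables. In the first experiment 25 of 53 tested were called, 7 higher and 18 lower, with a median log2 change of −0.07. These are 13.2% and 34.0% of those tested, beside 17.9% and 19.7% of all genes. FLRT1 and FLRT3, adhesion proteins that bind Robo and UNC5 receptors, were lower by 0.94 ± 0.09 and 0.87 ± 0.05 (adjusted p = 2.50e-05 and 5.52e-07). SRGAP3, which binds Robos, was lower by 0.64 ± 0.07, and SDC3, a heparan sulfate proteoglycan, by 0.62 ± 0.05. DSCAM, a netrin receptor, was higher by 0.49 ± 0.16 (adjusted p = 0.0367), a call lost without Puro replicate 2 (0.118), Puro replicate 3 (0.0828) or ABCC1 replicate 2 (0.0926). By pathway, the semaphorin and plexin partners had 1 higher and 5 lower of 13 tested, those of Slits and Robos 0 and 6 of 13, those of Ephs and ephrins 2 and 2 of 13, and those of netrins 4 and 5 of 14. Picked out after their values were seen, the collapsin response mediators CRMP1, DPYSL2, DPYSL3 and DPYSL5, which carry semaphorin signals to microtubules, were among the lower, by 0.28, 0.28, 0.16 and 0.17 on the log2 scale, and DPYSL4 had −0.05 ± 0.08 and was not called. The DPYSL3 call was lost without Puro replicate 2 (0.0575) or 3 (0.0639), and that of DPYSL5 without Puro replicate 2 (0.0744) or ABCC1 replicate 1 (0.0649) or 2 (0.0571).

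In the second experiment 1 of the 57 partners was called, FLRT2, lower by 1.62 ± 0.40 (adjusted p = 0.0385), at 0.778 and 0.253 CPM per kb where olfactory receptors had 0.578 and 0.303. The call was lost without any Puro library or ABCC1 replicate 2 (adjusted p from 0.0791 to 0.166). Of all genes, 1.25% were higher and 0.458% lower there. In the third 3 were called, 1 higher and 2 lower, where 2.03% and 0.767% of all genes were. FLRT1 was lower by 0.59 ± 0.16 and FLRT3 by 0.68 ± 0.19 (adjusted p = 0.0232 and 0.0234), the latter at 3.64 and 2.27 CPM per kb beside an olfactory level of 1.57 and 1.25. NCK1, an adaptor of Eph receptors, was higher by 0.62 ± 0.17 (adjusted p = 0.0247). These calls did not hold with one library left out. FLRT1 was not called without any one of the 6 libraries (adjusted p from 0.0548 to 0.189), FLRT3 without Puro replicate 2 or 3 or ABCC1 replicate 1 or 2 (0.0570 to 0.174), and NCK1 without Puro replicate 1 or 3 or ABCC1 replicate 2 or 3 (0.118 to 0.193).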

How the data were processed

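The authors aligned read pairs with STAR 2.7.3a to GRCh37 with Ensembl annotation and vector sequences, and counted pairs over exons per gene with featureCounts (Subread 2.0.0) without a strand option. The deposited values are these raw, whole-number counts, and the exon length of each gene is given beside them. Genes were named by Ensembl ID (52338 of 57905 matched).

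Each experiment was fitted alone, its 6 libraries by line, with edgeR 4.0.16 (quasi-likelihood, robust) in R 4.3.3 after TMM scaling and a filter at 10 counts, and p-values were adjusted by Benjamini-Hochberg over every Ensembl gene that passed. Levels are CPM after TMM, within each experiment. A joint fit of 18 libraries tested whether changes differed. DESeq2 1.42.0 and limma 3.58.1 were alternatives. Scripts were tested on simulated data. Genes described singly were the members called the same way in 2 or more experiments, up to 10 called members of largest change per experiment with at least 1 CPM in a line, up to 3 of highest level per family, and 6 pathway genes. Others, such as SEMA3B, SEMA3E, SEMA3F, PLXNA2, EPHA4 and SEMA5A, were described after their values were seen. Members and lists were chosen with earlier results of these data known. Libraries of a group differed beyond counting noise (chi-square per degree of freedom 1.53 to 26.1 over 18 pairs). The biological coefficient of variation was 5.67%, 35.3% and 19.7% in the 3 experiments.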

Additional observations from a re-analysis of the deposited data

Results flagged for a closer look

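The change of 6 members in ABCC1 over Puro cells differed between the 3 experiments by the interaction test in edgeR. The adjusted p was 3.47e-09 for PLXNA4, which was higher in the first experiment and near the olfactory receptor level in the others. It was 2.81e-05 for DCC, which was lower in the first and under that level in the others. SEMA5B had 0.0107, with the lowest change in the second experiment, near background. SEMA5A had 0.0233, above 0 in the first and below 0 in the others, where it was near background in Puro cells of the second and in both lines of the third. ROBO2 had 0.0258 and SEMA3A 0.0493, both below 0 in all 3 experiments, with the changes of largest size in the first. In the third, ROBO2 was near background in both lines and SEMA3A in ABCC1 cells. Leaving out one library or changing the fit kept DCC under 0.05 in 22 of 22 alternatives and PLXNA4 in 23 of 23, SEMA5B in 21, SEMA5A in 18, ROBO2 in 14 and SEMA3A in 12 of 23.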

How the results depend on the processing

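In the first experiment 33 members were called, 13 higher and 20 lower, where 3040 of all genes were higher and 3342 lower. With the olfactory level as a covariate there were 12 (all genes 426 and 827), with a spread shared over 18 libraries 16 (935 and 741), and 25 to 43 with one library left out. In the second, 1 was called, a lower one, where 425 of all genes were higher and 156 lower. The count of members, and their direction, turned with the fit there. It was 10 with DESeq2, 7 higher and 3 lower (all genes 2007 and 549), 7 with limma-voom, 3 and 4 (806 and 493), 3 with relative log expression, 2 and 1 (784 and 302), 6 without a filter, 3 and 3 (895 and 504), 8 with at least 10 counts in every library, 1 and 7 (683 and 681), 8 among protein-coding genes only, 1 and 7 (582 and 423), 0 with the covariate (4 and 5) and 17 with the shared spread, 7 and 10 (2413 and 2950). With one library left out it was 0 to 4. The calls over all genes then went from 3 higher and 2 lower without Puro replicate 3, and 17 and 7 without ABCC1 replicate 2, to 593 and 765 without ABCC1 replicate 3, so shares of all genes in the second experiment rest on single libraries. In the third, 6 were called, 2 higher and 4 lower (all genes 741 and 280), against 10 with DESeq2, 4 and 6 (1394 and 167), 14 among protein-coding genes only, 4 and 10 (1408 and 492), and 7 with the covariate, 0 and 7 (190 and 581). With one library left out there were 2 to 11, where calls over all genes went from 279 and 126 without ABCC1 replicate 2 to 2336 and 423 without Puro replicate 2. Pathway genes called numbered 6 with DESeq2 in the second experiment, and ranged with one library left out over 17 to 30, 0 to 3 and 0 to 4. Over all genes the first experiment then went from 2105 higher and 2558 lower without Puro replicate 3 to 3792 and 4035 without ABCC1 replicate 3. Members differing between experiments ranged over 3 to 8 with one library left out. All genes differing ranged from 334 to 1111, beside 550 in the main fit. The causes were not tested.

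The replicate block gave 30, 3 and 12 members called, with 2479 and 2877, 438 and 270, and 1344 and 540 of all genes higher and lower. It called EFNB1 in the second experiment (adjusted p = 0.00937). Same-numbered libraries deviated with correlations of −0.19 to 0.12, with 1 of 9 pairs over 0.1, and no source used here says that a number stands for a shared week, so they were not treated as pairs.

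Over 11 genes named for their changes, 249 alternatives kept a call and 20 lost it, with no change of direction. The tally pools the 3 experiments. Losses from leaving out a single library were all in the later experiments. They were those of NRP1 in the second (4 libraries), and of PLXNA3 (4), SEMA3C (3), NRP1 (1) and ROBO2 (1) in the third. Of values not called, 34 came to be called and 16 changed direction. With the covariate these were DCC in the second (0.0188) and the third (0.14), EPHB2 (−0.18) and PLXNA4 (−0.26) in the second and SLIT2 (0.0983) in the third experiment. In the second, EPHB2 had −0.0643 and PLXNA4 −0.0361 with at least 10 counts in every library, and −0.0684 and −0.0387 among protein-coding genes only. With one library left out EPHB2 ranged from −0.0624 to 0.12, PLXNA4 from −0.18 to 0.38 and SEMA3C from −0.37 to 0.11 in the second, and PLXNA4 from −0.0703 to 0.15 in the third. Depth limits DCC, at 1 to 4 counts in ABCC1 libraries of the first experiment.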
